A study of Mus musculus with 55 samples.

Results

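The collagen genes of the mouse were described across 10 cell populations sorted from liver. They were chosen by symbol, as every gene whose symbol is Col, a number, the letter a and a number, with the row of highest mean kept where a symbol had several rows. This gave 44 of the 24478 symbols in the table. RNA sequencing levels came from 55 libraries of C57B/L6 mice, 27 of them normal and 28 taken after partial hepatectomy (PH), the surgical removal of some liver lobes. All cells were sorted by FACS straight into TRIzol, and the labels name no other allele, transgene or agent in any group.

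The populations were hepatic stellate cells (HSC, 2 normal and 3 PH libraries), Thy1 cells (2 and 2), non progenitor ducts (NPD, 2 and 2), liver sinusoidal endothelial cells (LSEC, 3 and 5), endothelial cells (EC, 2 and 3), Kupffer cells (KC, 2 and 3), blood cells (2 and 2), clonal biliary epithelial cells (cBEC, 4 and 2), biliary epithelial cells (BEC, 4 and 2) and hepatocytes (HC, 4 and 4). The labels give no age, no time after surgery, no sorting markers, no sequencing batch and no statement that libraries came from separate animals. The p-values below therefore measure the spread between these libraries, which may be technical.

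Collagens are triple helices of chains that are modified in the endoplasmic reticulum, secreted and built into matrix. Fibrillar collagens form the banded fibres of connective tissue and scar, FACIT collagens sit on the surface of those fibres, beaded filament collagens link fibres to cells, and basement membrane collagens form the sheet under epithelia and around vessels. In liver, stellate cells and portal fibroblasts are the best known makers of fibrillar collagen, while sinusoidal endothelium is known for lacking a continuous basement membrane.

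Levels are deposited FPKM, fragments scaled to transcript length and library size, so levels of different genes can be set side by side. The read depth behind them is unknown. Hepatocyte markers (Alb, Apoa1, Ttr, Cyp3a11, Serpina1a) summed to 87889 to 94067 FPKM in normal HC and were listed at 0 in every library of the other populations except in normal cBEC, normal Thy1 and PH blood. For genes that reached 10 FPKM in 5 or more normal groups besides HC, 0.981% of values outside HC were 0 where normal HC had under 1 FPKM. The share was 0.263% where normal HC had 1 to 30 FPKM, 0.350% at 30 to 100, 1.66% at 100 to 300 and 5.92% at 300 or more. A gene at exactly 0 outside hepatocytes is therefore written as listed at 0. The defining markers were present in each normal population. After PH, blood libraries held Kupffer markers (Clec4f, Vsig4, Timd4, Cd5l, Adgre1, Marco) at a sum of 9266 to 16278 FPKM and blood markers at 888 to 2166, against 465 to 752 and 4873 to 5235 in normal blood, which goes against the label. Normal cBEC library 1 stood apart from the other 3, with mesothelial markers summing to 1841 FPKM. NPD and Thy1 libraries also held mesothelial markers, at 6012 to 6568 and 1947 to 3143 FPKM in normal liver. In sorted bulk RNA, fewer cells of a type and less RNA per cell cannot be told apart.

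Of the 44 genes, 27 had a mean of at least 10 FPKM in at least 1 of the 20 groups, 8 peaked between 1 and 10, and 9 stayed under 1 in every group. Summed collagen RNA was highest in HSC, Thy1 and NPD and lowest in KC after PH. The sum was 2638 and 5658 FPKM in the normal HSC libraries, 3858 and 3168 in normal Thy1 and 2755 and 2198 in normal NPD. These were the 3 highest normal groups. The HSC libraries lay far apart and overlapped both others, while both Thy1 libraries lay above both NPD libraries. Normal EC and LSEC followed, at means of 794 and 763 FPKM, then cBEC (585), BEC (372), KC (315), HC (252) and blood (80.1). Collagens took 0.988% of the summed FPKM of a library in normal HSC and 0.0161% in normal blood.

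After PH the order of the top groups became NPD (4119 and 4105 FPKM), HSC (2369, 4568 and 4906) and Thy1 (5208 and 2618). The PH NPD libraries were close together and lay above both normal NPD libraries, whereas the PH HSC and PH Thy1 libraries overlapped the normal ones. KC had the lowest sum after PH, 57.4, 29.2 and 75.8 FPKM. The summed levels are a description and were not tested.

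**Figure D1:**
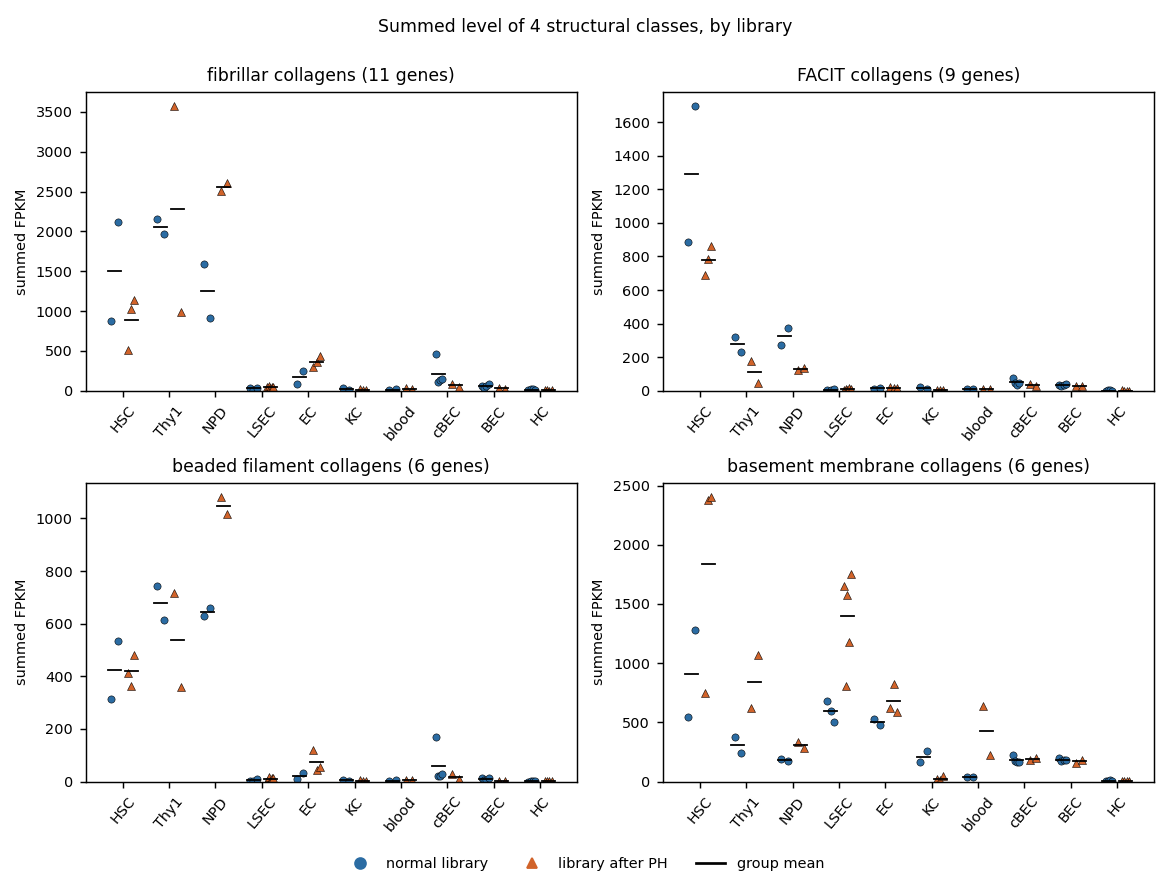
Summed FPKM of the fibrillar, FACIT, beaded filament and basement membrane collagens in each library, by sorted population, with normal libraries as circles, PH libraries as triangles and group means as bars. Fibrillar and beaded filament RNA was high in HSC, Thy1 and NPD, FACIT RNA in HSC, and basement membrane RNA in HSC, LSEC, EC and Thy1.

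Fibrillar collagens were carried by HSC, Thy1 and NPD in both treatments. Col3a1, which forms the fine reticular fibres of liver together with type I collagen, was the highest collagen of normal Thy1 at 1059 and 937 FPKM and of normal NPD at 987 and 554. Its highest mean was in PH NPD, where the libraries had 1557 and 1666 FPKM. In HSC it stood at 396 and 1186 FPKM in normal liver and 141, 422 and 377 after PH. The HSC ranges of both treatments overlapped. Outside those populations Col3a1 reached 146 FPKM in PH EC and 78.3 in normal cBEC, the latter with 213 in library 1 and 31.5, 30.3 and 38.5 in the others.

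Type I collagen, the main protein of scar fibres, is built from the chains of Col1a1 and Col1a2. Col1a1 was highest in normal Thy1, at 414 and 339 FPKM, and Col1a2 was highest there too, at 518 and 486. Normal HSC had 16.1 and 93.9 FPKM of Col1a1 and 299 and 437 of Col1a2. The ratio of Col1a2 to Col1a1 was thus 18.6 and 4.66 in normal HSC libraries 1 and 2 and 2.97 to 5.15 in PH HSC, whereas it was 1.12 to 1.43 in the Thy1 libraries of both treatments and 1.06 to 1.33 in NPD. Every HSC library lay above every Thy1 and NPD library in this ratio. FPKM ratios also depend on how each transcript was counted.

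Type V collagen sits inside the type I fibre and sets its width. Its chains had different sources. Col5a1 was highest in normal HSC, at 110.5 and 272 FPKM, and every HSC library of that treatment lay above the 65.5 to 67.2 FPKM of normal Thy1. Col5a2 was highest in PH EC, at 130.1, 189 and 139.8 FPKM, a level overlapping that of PH Thy1 (178 and 118) and PH NPD (142 and 127), while EC had almost no Col5a1 (3.95 FPKM after PH). Col5a3 was highest in PH NPD, at 19.8 and 21.0 FPKM, and was the second collagen of normal hepatocytes at 2.77 to 15.3. Col27a1, a fibrillar collagen of cartilage, had its highest mean in the biliary sorts: it was 29.8 to 82.7 FPKM in normal cBEC and 19.7 to 40.6 in normal BEC, against 14.1 in normal Thy1. Col24a1, a minor fibrillar collagen, was at 10.7 and 7.53 FPKM in normal HSC, while no other normal group reached a mean of 1.

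FACIT collagens were dominated by Col14a1, which binds the fibre surface through other matrix proteins. Col14a1 was the most abundant collagen of normal HSC at 849 and 1604 FPKM and had 652, 743 and 801 FPKM in the PH HSC libraries. Normal NPD had 211 and 327 FPKM and normal Thy1 276 and 184, and no library of another normal population passed 48.6. Col16a1 was highest in normal HSC (34.2 and 84.7 FPKM), with PH NPD next (53.6 and 54.9), and was the main FACIT collagen of BEC at 18.1 in normal liver. Col12a1, known from tendon and from wounds, had its highest mean in PH NPD at 13.8 and 15.6 FPKM, above PH Thy1 at 9.88 and 6.01. Col9a3, a chain of cartilage type IX collagen, was highest in normal BEC at 11.5 ± 3.65 FPKM (SD, n = 4), which overlapped normal cBEC at 9.19 ± 3.66 FPKM (SD, n = 4). The other chains of type IX, Col9a1 and Col9a2, stayed under 1 FPKM in every group.

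Beaded filament collagens followed the fibrillar ones, with chain differences. Col6a1 and Col6a2, the chains found in all type VI collagen, were highest in PH NPD, at 594 and 557 FPKM of Col6a1 and 432 and 411 of Col6a2. Normal NPD and normal Thy1 followed for both genes. The third classical chain, Col6a3, was instead highest in normal HSC at 67.6 and 131 FPKM and low in normal NPD at 12.2 and 8.73. Col6a5 and Col6a6, whose chains can stand in for the Col6a3 chain, had other sources. Col6a5 was highest in PH NPD (26.0 and 25.1 FPKM) and Col6a6 in normal Thy1 (18.6 and 9.59), and in normal HSC both were listed at 0. Col6a4, the remaining chain of this kind, had a group mean above 1 FPKM only in HSC, at 4.14 and 6.51 FPKM in normal and 2.61, 7.93 and 0.345 in PH libraries.

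Basement membrane collagens split into separate source patterns. Col4a1 and Col4a2, the chains of the sheet under nearly every epithelium and vessel, were highest in HSC and in the endothelial sorts. Col4a1 had its highest mean in PH HSC, at 471, 1667 and 1625 FPKM, and Col4a2 in PH LSEC, at 761, 352, 741, 518 and 814. In normal liver Col4a1 was 344 and 805 FPKM in HSC, 402, 349 and 290.4 in LSEC and 307 and 267 in EC, ranges in which HSC library 1 overlapped LSEC. The biliary sorts had 75 FPKM (BEC) and 70.7 (cBEC), and hepatocytes 2.02. The ratio of Col4a1 to Col4a2 stayed between 0.644 and 2.36, with a median of 1.46, over the 54 libraries with Col4a1 at 1 FPKM or more.

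The other 4 chains make the networks of specialised basement membranes, and mutations of Col4a3, Col4a4 and Col4a5 are known to cause Alport kidney disease. Col4a5 was even between NPD and the biliary sorts: 70.4 and 49.5 FPKM in normal NPD, 54.7, 44.4, 62.3 and 57.5 in normal BEC and 41.5, 57.7, 53.6 and 45.8 in normal cBEC overlapped. Its highest mean was in PH NPD, at 68.5 and 64.0 FPKM. Its partner Col4a6 was not even, at 31.2 and 29.0 FPKM in normal NPD, its highest group, against 6.58, 4.79, 4.93 and 6.19 in BEC. Col4a4 and Col4a3 were likewise highest in normal NPD, at 29.6 and 43.8 FPKM of Col4a4 and 10.2 and 16.7 of Col4a3. Normal Thy1 was second, at 19.2 and 14.2 FPKM of Col4a4 and 7.22 and 5.93 of Col4a3. In normal HSC Col4a3, Col4a4 and Col4a6 were listed at 0 in both libraries. Mesothelial markers and duct markers share Krt19 and were both present in NPD and Thy1, and their part in these levels was not tested.

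The 3 pairs of basement membrane genes lie head to head, so their starts can be compared with their levels. On the table's mm9 coordinates the starts of Col4a1 (chromosome 8, minus strand) and Col4a2 (plus strand) are 21 bases apart, and those of Col4a3 and Col4a4 (chromosome 1) are 72 bases apart. Those of Col4a5 and Col4a6 (chromosome X) are 1343 bases apart. Across the 20 group means of log2(FPKM + 1), Pearson's r was 0.99 for Col4a1 with Col4a2, 0.96 for Col4a3 with Col4a4 and 0.93 for Col4a5 with Col4a6. Between pairs it was -0.04, for Col4a1 with Col4a5. Genes that do not share a start region were as closely related within the other classes: r was 0.99 for Col6a1 with Col6a2, whose starts are 102640 bases apart on the same strand, and 0.97 for Col1a1 with Col1a2, on different chromosomes. Col3a1 and Col5a2, neighbours on chromosome 1 with starts 191744 bases apart, had r of 0.80. These are descriptions over groups that share libraries' depth and cell admixture, and the strand used in counting is not given in the sources used here, so reads in the overlap of Col4a1 and Col4a2 cannot be assigned.

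Transmembrane, multiplexin and short chain collagens marked different sources again. Col13a1, a transmembrane collagen of cell adhesion sites, was highest in PH LSEC at 244, 122, 249, 129 and 201 FPKM and in normal liver in LSEC at 123, 174 and 74.5, overlapping EC at 103 and 34.3 and KC at 46.8 and 75.2. The libraries labelled PH blood came second after PH LSEC, at 239 and 64.0 FPKM. Col23a1, another membrane collagen, was highest in normal Thy1, but its libraries had 55.6 and 3.31 FPKM and so differed widely. Col18a1, a basement membrane collagen whose end is cleaved to endostatin, was highest in hepatocytes. It had 189, 233, 254 and 237 FPKM in normal HC and made up 90.6% of their summed collagen. Col18a1 was also 106 FPKM in normal Thy1, 75 in BEC, 70.5 in cBEC and 63.4 in NPD. After PH the hepatocyte libraries had 31.8, 112, 148 and 138 FPKM, which overlapped PH cBEC at 90.5 and 107. The FPKM of all genes summed to 675734 to 762627 in PH HC and 417675 to 434718 in PH cBEC libraries. Col18a1 was listed at 0 in HSC and KC of both treatments and in normal blood, and falls under the limit on zeros of hepatocyte transcripts given above. Col15a1, its relative in vessel and muscle basement membranes, was highest in normal Thy1 at 25.1 and 33.0 FPKM. Col8a1, a short chain collagen of vessel walls, was highest in PH EC, with library values of 16.1, 78.5 and 22.7 FPKM.

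The 8 genes between 1 and 10 FPKM were Col24a1 and Col6a4, given above, with Col11a2 (highest in normal KC, 3.70 FPKM), Col17a1 (normal EC, 1.54), Col20a1 (normal cBEC, 2.46), Col25a1 (normal HSC, 2.95) and Col7a1 (normal Thy1, 1.15), with Col8a2 (normal NPD, 5.74) as the eighth. Col7a1 encodes the anchoring fibrils of skin, Col17a1 a hemidesmosome collagen. The 9 genes under 1 FPKM in every group were Col2a1, Col9a1, Col9a2, Col10a1, Col11a1, Col19a1, Col22a1, Col26a1 and Col28a1, among them the main collagens of cartilage.

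**Figure D2:**
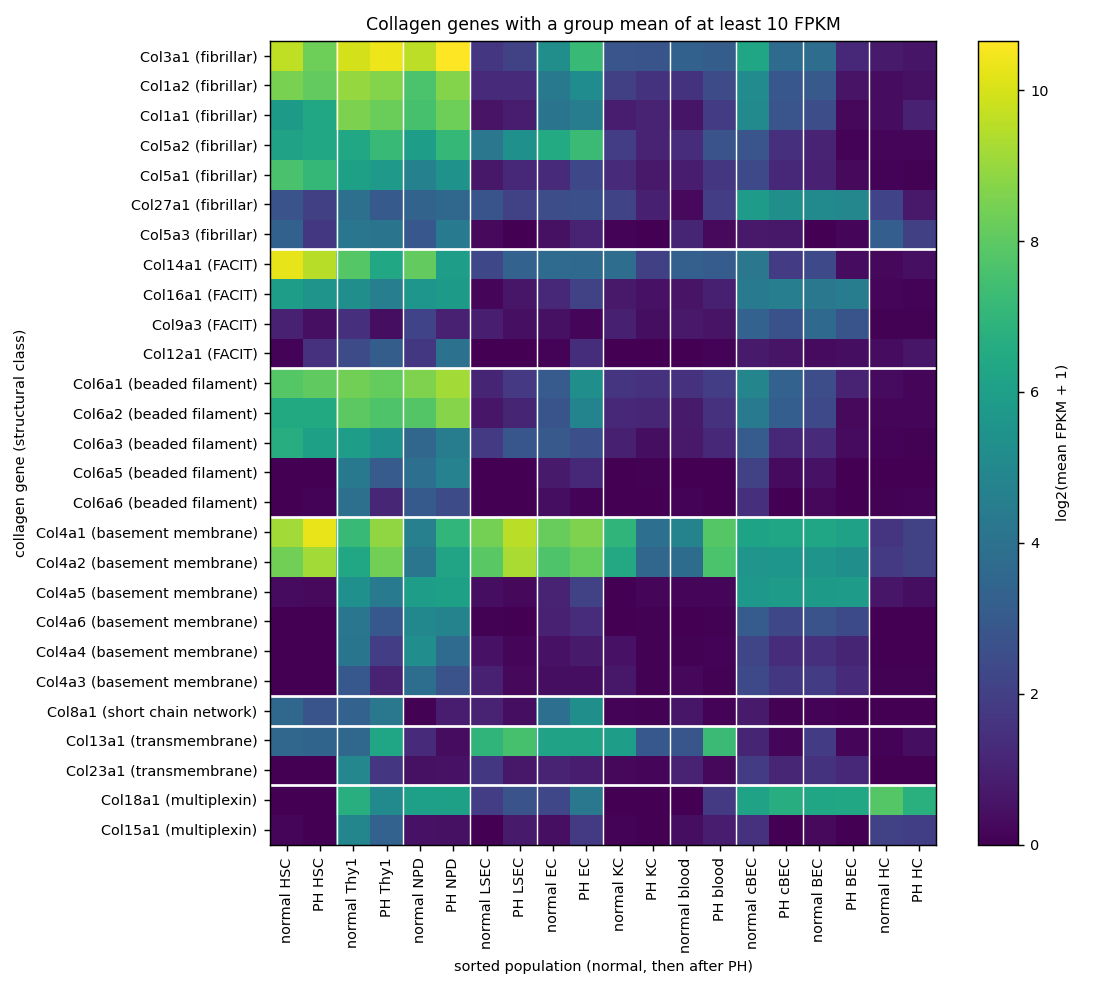
Mean level of the 27 genes that reached 10 FPKM in some group mean, as log2(mean FPKM + 1), with genes in rows by structural class and the 20 groups in columns. Col14a1 is brightest in HSC, Col3a1 in PH NPD, Col4a5 is even across NPD and the biliary sorts, and Col18a1 is dark in HSC, KC and normal blood.

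**Figure D3:**
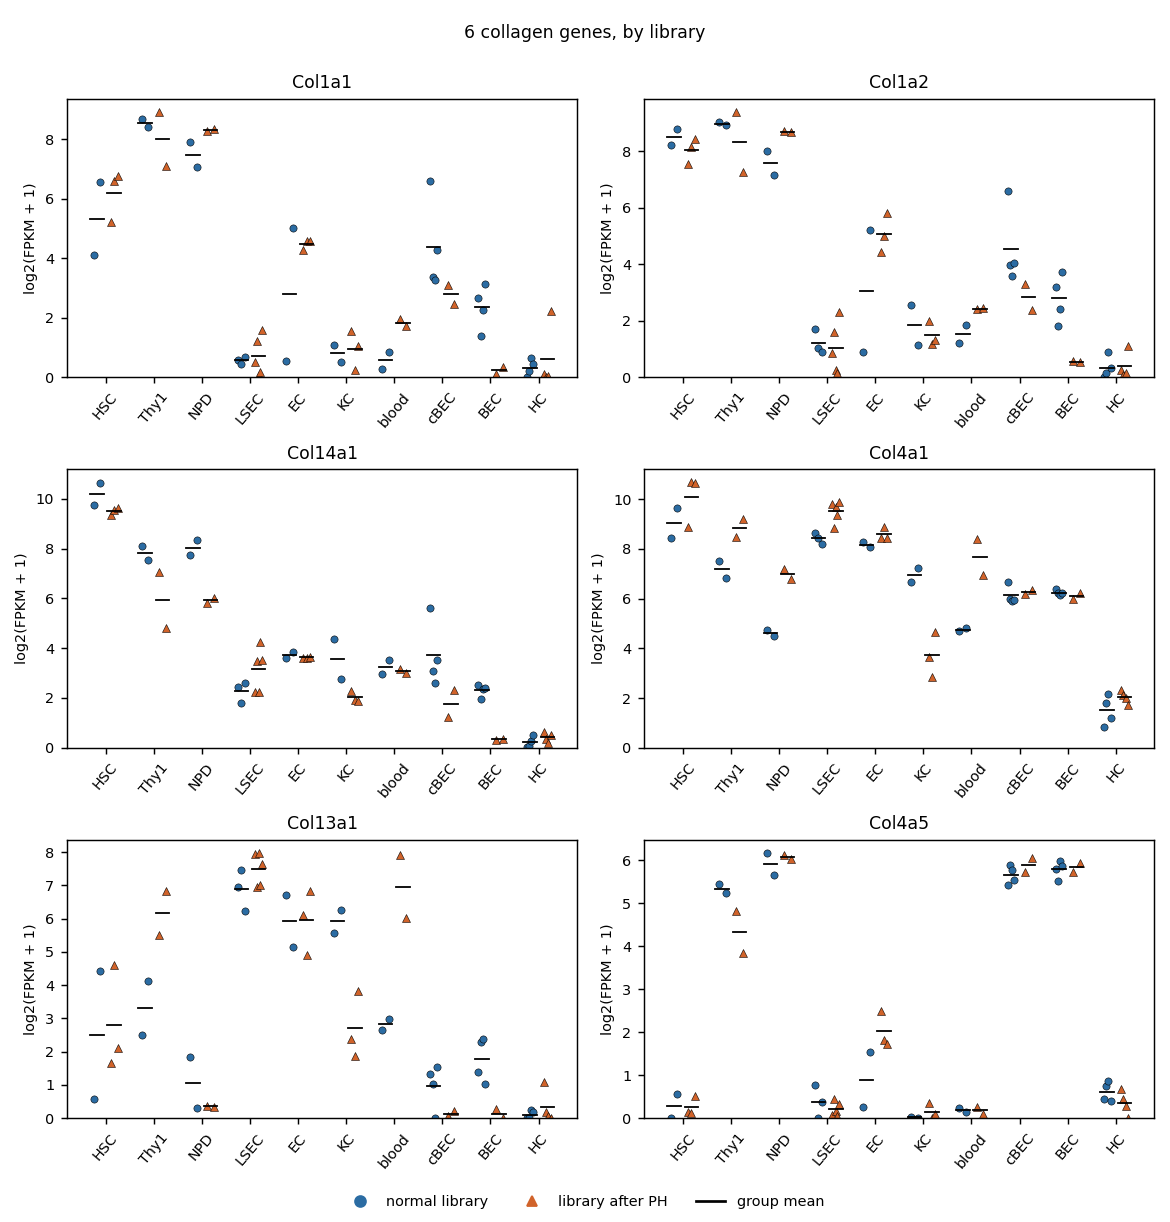
Levels of Col1a1, Col1a2, Col14a1, Col4a1, Col13a1 and Col4a5 in each of the 55 libraries as log2(FPKM + 1), with normal libraries as circles, PH libraries as triangles and group means as bars. Normal cBEC library 1 lies above the other cBEC libraries for Col1a1, Col1a2 and Col14a1, and the PH blood libraries lie far above normal blood for Col4a1 and Col13a1.

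The sequences before the starts of 4 genes are shown because these genes stand for the source patterns above: Col1a2 and Col3a1 varied together over the groups (r of 0.99) and are the fibrillar genes of HSC, Thy1 and NPD, Col13a1 is the endothelial pattern, and Col4a5 the one of ducts. RefSeq promoters on GRCm38.p6 were found for 35 of the 44 symbols (38 promoters). Each line gives the 250 bases before the RefSeq start, 5′ to 3′ on the gene's strand, with the motifs searched in capitals. The first motif searched, on both strands, was the CCAAT box with the letters CCAAT. The next was the box of guanines and cytosines known from many promoters, with the letters GGGCGG. The last was the box near many starts with the letters TATAAA, also on both strands. The windows are chr6:4505368-4505617 (plus strand), chr1:45311288-45311537 (plus), chr10:61979109-61979358 (minus) and chrX:141475169-141475418 (plus) on GRCm38.p6.
Col1a2: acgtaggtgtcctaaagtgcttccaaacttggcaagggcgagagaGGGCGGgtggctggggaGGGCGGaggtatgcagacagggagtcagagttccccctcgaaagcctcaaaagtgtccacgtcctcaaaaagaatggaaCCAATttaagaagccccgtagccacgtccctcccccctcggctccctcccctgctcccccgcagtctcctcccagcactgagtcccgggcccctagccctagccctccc
Col3a1: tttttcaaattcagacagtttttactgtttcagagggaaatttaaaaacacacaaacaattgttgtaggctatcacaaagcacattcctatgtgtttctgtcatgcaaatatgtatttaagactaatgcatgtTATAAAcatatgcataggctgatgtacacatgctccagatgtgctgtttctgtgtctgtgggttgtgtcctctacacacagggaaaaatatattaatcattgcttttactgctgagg
Col13a1: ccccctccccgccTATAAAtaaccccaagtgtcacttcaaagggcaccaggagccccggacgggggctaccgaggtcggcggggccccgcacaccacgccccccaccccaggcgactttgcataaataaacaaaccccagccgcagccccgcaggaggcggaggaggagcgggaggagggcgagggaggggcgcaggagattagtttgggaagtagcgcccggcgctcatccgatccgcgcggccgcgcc
Col4a5: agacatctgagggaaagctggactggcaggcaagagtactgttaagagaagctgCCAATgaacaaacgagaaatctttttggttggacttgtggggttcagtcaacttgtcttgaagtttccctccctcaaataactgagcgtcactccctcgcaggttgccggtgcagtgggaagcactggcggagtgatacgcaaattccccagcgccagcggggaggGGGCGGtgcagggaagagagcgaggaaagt
The Col1a2 window holds 1 CCAAT motif and 2 GGGCGG motifs in 62.0% G and C, while the Col3a1 window holds neither, has 1 TATAAA motif and 35.2% G and C. These genes, whose levels varied together over the groups, therefore have start regions of unlike composition. The Col13a1 window has 68.8% G and C with 24 CpG pairs and 1 TATAAA motif, and that of Col4a5 has 1 CCAAT and 1 GGGCGG motif. Over the 38 collagen promoters, 13 held CCAAT (34.2%, against 33.8% of all 32851 promoters), 22 held GGGCGG (57.9% against 32.7%) and 5 held TATAAA (13.2% against 12.4%), on either strand. Median G and C was 59.0% in collagen promoters and 52.4% in all. A match is a description of letters and not a shown binding site.

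Whether HSC, Thy1, NPD, LSEC and EC each carried collagen RNA above the average of the other 9 populations was tested with limma on log2(FPKM + 1), within each treatment. The sorts cBEC, BEC, HC, KC and blood were not tested in this way. In normal liver 36 of the 44 genes passed the filter of 1 FPKM in at least 2 libraries. A gene high in 1 population alone can pass that filter, so the counts describe the genes and are no test of them as a set. Among the populations tested Thy1 had the most: 26 of 36 were higher there and 0 lower, against 20.1% higher among all genes. NPD had 19 higher and 5 lower (all genes 18.8% higher, 14.9% lower). HSC had 18 higher and 8 lower (all genes 13.5% and 32.9%). EC had 6 and 12 (all genes 13.7% and 20.1%), and LSEC 3 and 22 (all genes 17.1% and 28.4%). The median difference of the 36 genes was 2.81 in Thy1, 1.34 in NPD, 0.21 in HSC, -0.57 in EC and -0.83 in LSEC. The medians over all genes were 0.15, -0.02, -0.31, -0.13 and -0.16 in the same order.

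The scale of all genes depends on the normalization here. Among all 16139 genes 3245 were higher and 694 lower in normal Thy1, but 2191 and 2828 after quantile normalization and 2513 and 1101 after upper-quartile scaling. The collagen counts in Thy1 were then 24 higher and 2 lower, and 24 and 1. In normal HSC the split of all genes moved from 2171 higher and 5307 lower to 2875 and 3699, and in normal NPD from 3029 and 2398 to 2689 and 3372, both with quantile normalization. The collagen counts in HSC and NPD stayed at 18 and 19 higher.

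The largest excess in normal HSC was that of Col14a1, 6.31 ± 0.48 (SE, limma adjusted p = 7.84e-10) on the log2 scale, followed by Col5a1 at 5.50 ± 0.44 (SE, limma adjusted p = 1.79e-09). Both HSC libraries lay above every library of the other populations for these genes, for Col6a3 (4.44), Col24a1 (3.27), Col6a4 (2.56) and Col25a1 (1.72). In normal Thy1 the type I chains led, Col1a1 at 5.82 ± 0.79 (SE, limma adjusted p = 6.79e-06) and Col1a2 at 5.48 ± 0.73 (SE, limma adjusted p = 5.69e-06). Their libraries lay above all others, as did those of Col15a1 (4.33), Col6a6 (3.30), Col12a1 (2.07) and Col7a1 (0.84). In normal NPD the leading gene was Col6a1 at 5.29 ± 0.56 (SE, limma adjusted p = 1.62e-07), and NPD libraries lay above all others for it, for Col4a4 (4.16), Col4a6 (3.75) and Col4a3 (2.77). Of all 16139 genes, 577 lay above all others in normal HSC, 204 in normal Thy1 and 612 in normal NPD. Of the 36 collagens these were 6, 6 and 4. The 3 genes higher in normal LSEC were Col13a1, at 4.17 ± 0.53 (SE, limma adjusted p = 1.9e-06), Col4a2 (2.44) and Col4a1 (2.36). Normal EC shared these, at 3.10, 2.21 and 2.07, and was also higher for Col8a1 (2.84), Col17a1 (0.90) and Col5a2, the last at 3.26 ± 0.49 (SE, limma adjusted p = 2.77e-05).

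After PH, 32 genes passed the filter. Thy1 was higher for 25 and lower for 0 (all genes 17.9% higher, 5.53% lower), and NPD higher for 22 and lower for 1 (24.4% and 10.4%). HSC had 14 higher and 13 lower (17.4% and 35.4% of all genes), and 15 and 6 with quantile normalization. EC had 11 higher and 5 lower (17.8% and 19.8%), and LSEC 4 and 21 (19.3% and 31%). The members' medians were 2.05 in Thy1, 2.37 in NPD, 0.18 in HSC, 0.14 in EC and -0.67 in LSEC, against 0.16, 0.20, -0.25, -0.05 and -0.13 over all genes. All genes split 2772 higher to 857 lower in Thy1, 3785 to 1620 in NPD and 2691 to 5489 in HSC. With quantile normalization these became 1965 to 2291, 2710 to 3167 and 3362 to 4357. With upper-quartile scaling they became 2085 to 1110 in Thy1 and 2656 to 1970 in NPD. Collagens higher in PH HSC were led by Col14a1 (6.59) and Col5a1 (4.98), in PH NPD by Col3a1 (6.40) and Col6a2 (5.86), in PH Thy1 by Col3a1 (5.75), in PH EC by Col8a1 (4.14) and in PH LSEC by Col13a1 (4.67). With PH blood and normal cBEC library 1 left out, an alternative chosen after the data were seen, the counts of collagens in these 10 comparisons stayed within 1.5 times of those given.

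HSC and Thy1, which had the highest summed collagen in normal liver, were compared directly. In normal liver 20 of 36 collagens differed (all genes 32.8%), 6 higher in HSC and 14 higher in Thy1. After PH 24 of 32 differed (all genes 33.3%), 5 higher in HSC and 19 in Thy1. The median HSC minus Thy1 difference was -0.73 in normal and -0.96 in PH libraries, against -0.34 and -0.31 over all genes. Among all genes in normal liver 1010 were higher in HSC and 4279 in Thy1, with 2476 and 2359 under quantile normalization and 1734 and 3113 under upper-quartile scaling. After PH the counts were 1178 and 3994, 2478 and 2308, and 1713 and 2915. The collagen counts stayed nearer, at 8 and 12 in normal and 5 and 14 in PH libraries with quantile normalization.

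With differences given as HSC minus Thy1 on the log2 scale, genes higher in HSC in both treatments were Col14a1 (2.37 ± 0.65 SE, limma adjusted p = 0.00679 in normal and 3.57 ± 0.51 (SE, limma adjusted p = 7.09e-06) in PH libraries), Col24a1 (3.18 and 1.43) and Col6a4 (2.45 and 1.75). Col14a1 in normal liver lost the call without normal Thy1 library 2 or normal HSC library 2 (adjusted p range 0.000199 to 0.0695 over the alternatives). Col4a1 and Col4a2 were higher in HSC in normal liver, by 1.86 and 1.95, and after PH the differences were 1.23 (0.18 to 2.27, 95% interval) and 0.77 (-0.29 to 1.83), not past the threshold. Higher in Thy1 in both treatments were the specialised basement membrane chains, Col4a5 (-5.05 ± 0.33 SE, limma adjusted p = 2.02e-10 and -4.07), Col4a6 (-4.14 and -2.86), Col4a4 (-4.13 and -1.89) and Col4a3 (-2.92 and -0.99). The same held for Col18a1, Col15a1, Col23a1, Col6a5, Col6a6, Col12a1, Col8a2, Col11a2 and Col1a1, of which Col1a1 was -3.22 ± 1.07 (SE, limma adjusted p = 0.0242) and -1.81 ± 0.62 (SE, limma adjusted p = 0.0281). Col18a1 was listed at 0 in every HSC library, so its difference falls under the limit on zeros of hepatocyte transcripts. The Col1a1 call was lost in 4 of 13 alternatives in normal and 5 of 14 in PH libraries, and Col11a2 turned direction after PH under quantile normalization (0.12 against -0.51). Mesothelial markers summed to 1947 to 3143 FPKM and duct markers to 860.3 to 5109 in normal Thy1, against 0.864 to 4.14 and 0.292 to 31.5 in normal HSC. Their part in these differences was not tested.

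The change after PH was tested within each population, with 5 to 30 collagens past the filter. Calls were made in NPD, LSEC, blood, KC and BEC, and 0 in HSC, Thy1, EC, cBEC and HC.

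**Figure D4:**
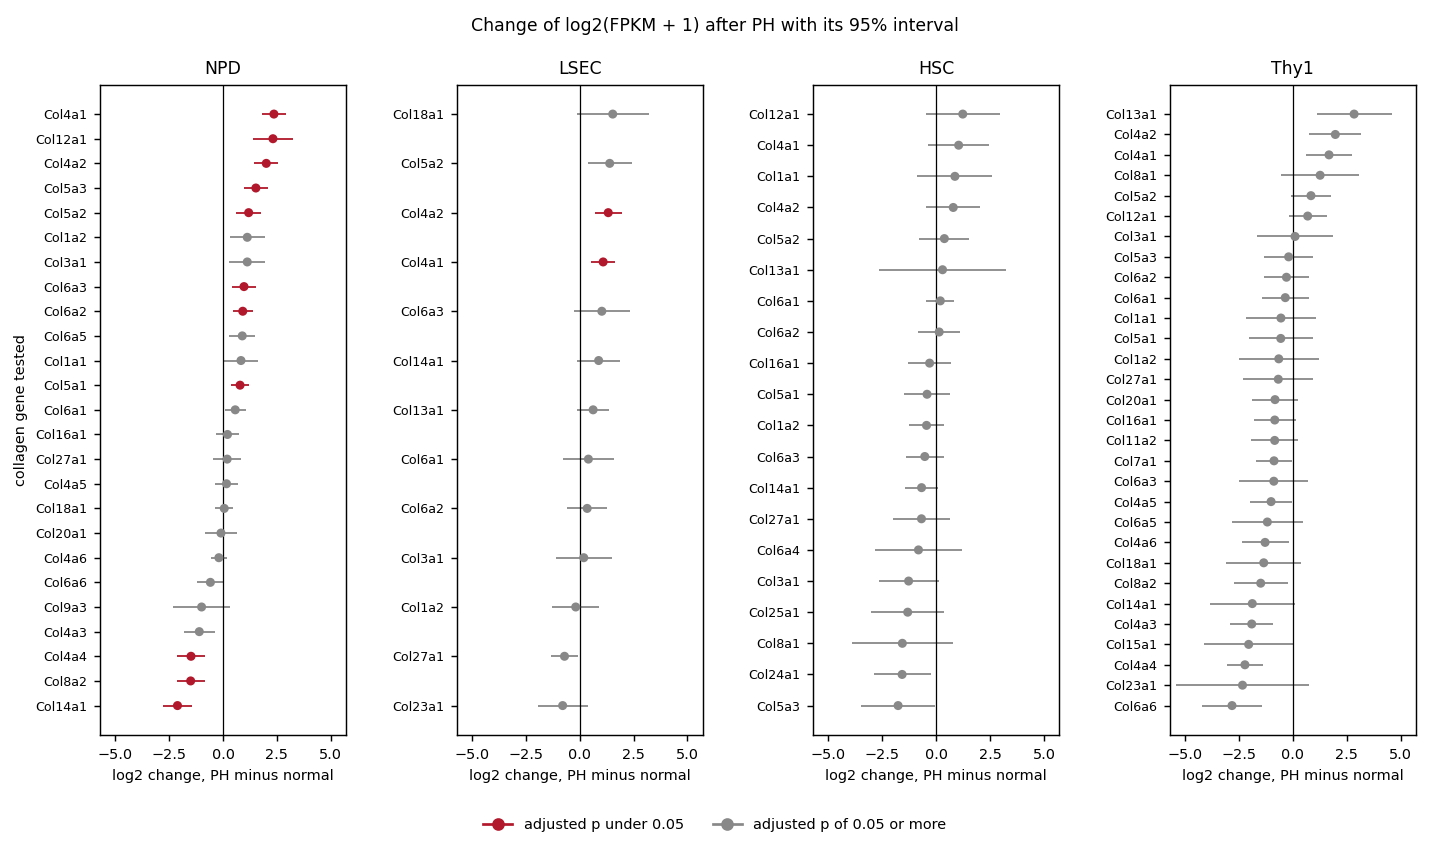
Change of log2(FPKM + 1) from normal to PH with its 95% interval for each collagen tested in NPD, LSEC, HSC and Thy1, with genes past an adjusted p of 0.05 in red. Col4a1 and Col4a2 lie to the right of 0 in all 4 populations, and their intervals exclude 0 in NPD, LSEC and Thy1 but not in HSC.

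In NPD 11 of 25 collagens passed, 8 higher and 3 lower after PH, against 15.2% of all genes. Col4a1 had 25.8 and 21.6 FPKM in normal and 145 and 108 in PH libraries, and Col4a2 had 19.8 and 15.0 in normal and 81.9 and 63.6 in PH libraries. Neither gene's groups overlapped, and the log2 changes were 2.36 ± 0.21 (SE, limma adjusted p = 0.00921) and 2.0 ± 0.22 (SE, limma adjusted p = 0.0107). These genes kept the call in all 11 alternatives.

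Col12a1 rose from 1.26 and 3.41 to 13.8 and 15.6 FPKM, and its log2 value rose by 2.31 ± 0.37 (SE, limma adjusted p = 0.0210). The type V chains rose as well. Col5a3 went from 7.56 and 5.49 to 19.8 and 21.0 FPKM (1.52 ± 0.21 SE, limma adjusted p = 0.0172), Col5a2 from 70.5 and 48.2 to 142 and 127 (1.19, adjusted p = 0.0336) and Col5a1 from 26.6 and 23.2 to 41.9 and 45.4 (0.79, adjusted p = 0.0352). Of the beaded filament chains Col6a3 went from 12.2 and 8.73 to 22.8 and 19.7 FPKM (0.97) and Col6a2 from 217 and 230.5 to 432 and 411 (0.91). Col3a1, Col1a2 and Col1a1 were higher without passing, at 1.12 (adjusted p = 0.0789), 1.12 (0.0724) and 0.83 (0.138).

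The NPD collagens that fell were Col14a1, Col8a2 and Col4a4. Col14a1 fell from 211 and 327 to 56.0 and 64.3 FPKM (-2.11 ± 0.26 SE, limma adjusted p = 0.0138), Col8a2, a short chain collagen, from 5.46 and 6.03 to 1.53 and 1.23 (-1.50, adjusted p = 0.0241), and Col4a4 from 29.6 and 43.8 to 10.8 and 13.8 (-1.49, adjusted p = 0.0238). All 11 genes had PH libraries wholly on 1 side of the normal ones. The same held for 13 of the 25 collagens higher and 7 lower, and for 4800 genes higher and 3599 lower of all 13024. The median change of the 25 genes was 0.56 against 0.09 over all genes, of which 1257 rose and 717 fell (1146 and 1091 with quantile normalization, 1009 and 891 with upper-quartile scaling). The collagen calls numbered 2 without PH NPD library 1, 3 without PH library 2, 19 without normal library 1, 17 without normal library 2, 4 with no filter and 7 in a single fit of all groups.

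Of 21 genes of collagen synthesis tested in NPD 7 rose and 0 fell (all genes 9.65% rose, 5.51% fell). The largest were Serpinh1, the collagen chaperone HSP47 (1.96), P4hb, a subunit of prolyl hydroxylase (1.48), and the lysyl hydroxylases Plod3 (1.35) and Plod2 (1.12). Of 7 collagen receptors Itga10 rose (1.27). Of 10 matrix genes Fn1 (1.32) and Fbn1 (1.20) rose, and the small proteoglycans Fmod (-1.98) and Dcn (-1.47) fell. Duct markers summed to 2574 to 3794 FPKM in normal and 3946 to 4729 in PH libraries, mesothelial markers to 6012 to 6568 and 4472 to 5081, and activated myofibroblast and smooth muscle markers to 96.3 to 256 and 1288 to 1329.8, mostly Timp1. Kupffer markers summed to 82.4 to 179.8 FPKM in normal and 4.74 to 8.81 in PH libraries. The part of these shifts in the collagen changes was not tested.

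In LSEC 2 of 13 collagens passed, both higher, against 8.46% of all genes. Col4a1 had 402, 349 and 290.4 FPKM in normal and 892, 458, 835, 659 and 943 in PH libraries, and Col4a2 had 276, 243 and 212 in normal and 761, 352, 741, 518 and 814 in PH libraries. The groups did not overlap. Without overlap were 3 of the 13 collagens higher and 0 lower, and 951 genes higher and 1212 lower of all 11501. The log2 changes of Col4a1 and Col4a2 were 1.09 ± 0.26 (SE, limma adjusted p = 0.0294) and 1.33 ± 0.28 (SE, limma adjusted p = 0.0191). The Col4a2 call was lost under quantile normalization, under the replicate block and without normal library 1, 2 or 3 or PH library 1, with adjusted p of 0.00467 to 0.196 over the alternatives. The Col4a1 call was lost in 10 of 15 alternatives, among them leaving out any normal library or PH library 1, 4 or 5. The log2 change itself stayed positive in each, at 0.89 or more for Col4a1 and 1.09 or more for Col4a2. The ratio of Col4a1 to Col4a2 was 1.37 to 1.45 in normal and 1.13 to 1.30 in PH LSEC libraries, without overlap and not tested.

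The largest positive change in LSEC was that of Col18a1, from 0, 0 and 8.32 to 10.1, 7.56, 2.16, 3.69 and 4.99 FPKM (1.53, limma adjusted p = 0.240). Its values listed at 0 fall under the limit on zeros of hepatocyte transcripts given above. Col5a2 came next, from 17.9, 4.87 and 30.9 to 38.7, 45.5, 33.1, 46.9 and 33.2 FPKM (1.40, limma adjusted p = 0.0903). Neither gene passed the threshold. The most negative values were those of Col23a1 (-0.79), Col27a1 (-0.70) and Col1a2 (-0.18), none of which passed. The median over the 13 genes was 0.63, against -0.03 over all genes. Of 18 genes of collagen synthesis 9 rose and 0 fell (all genes 4.15% and 4.31%), led by Serpinh1 (1.64), Plod2 (1.58), the prolyl 4-hydroxylase subunit P4ha2 (1.37) and the prolyl 3-hydroxylase P3h2 (1.26). LSEC markers summed to 4961 to 9358 FPKM in normal and 1812 to 5746 in PH libraries, and endothelial markers to 2721 to 3081 and 2403 to 3318. Their part was not tested.

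In HSC 0 of 20 collagens passed, against 0.00853% of all genes. At an unadjusted p under 0.05 were 2 collagens and 995 of all 11729 genes. Col4a1 was 344 and 805 FPKM in normal and 471, 1667 and 1625 in PH libraries, a log2 change of 1.04 (95% interval -0.38 to 2.46). PH library values of Col4a1 lay on both sides of normal library 2. The other largest positive changes were Col12a1, from 0 and 0.139 to 0.251, 3.43 and 1.84 FPKM (1.23), and Col1a1, from 16.1 and 93.9 to 36.2, 96.3 and 109 (0.87). The most negative changes were Col5a3 (7.47 and 10.4 against 2.10, 0.411 and 4.49 FPKM, -1.77), Col24a1 (10.7 and 7.53 against 2.19, 1.96 and 2.97, -1.58) and Col8a1 (12.2 and 10.3 against 3.39, 0.0806 and 13.8, -1.57). Of the 20 collagens 1 was higher and 5 were lower without overlap, as were 1728 genes higher and 1374 lower of all 11729. The higher gene was Col12a1. The lower ones were Col5a3, Col24a1, Col27a1, Col25a1 and Col14a1, the last at 849 and 1604 FPKM in normal and 652, 743 and 801 in PH libraries. The limma adjusted p was 0.577 for Col5a3, 0.517 for Col24a1 and 0.699 for Col12a1. The median was -0.44 over the 20 genes and 0.03 over all genes. A single fit of all groups called 5 collagens, a count to which the all-gene share of the fit within HSC does not apply. Activated markers were 238 to 491 FPKM in normal and 452 to 1520.1 in PH HSC, and normal HSC library 2 held Kupffer markers at 747 FPKM. LSEC markers summed to 190.5 to 970.8 FPKM in normal and 55.8 to 103.9 in PH HSC, and endothelial markers to 65.5 to 319 and 2.71 to 17.0. The part of these markers was not tested.

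In Thy1 0 of 30 passed, against 0.00747% of all genes. At an unadjusted p under 0.05 were 10 collagens and 2417 of all 13389 genes. With so few genes called at all, a missed threshold does not show that levels in Thy1 or HSC did not differ. The largest positive changes were in Col13a1, from 4.68 and 16.6 to 44.7 and 112 FPKM (2.84, adjusted p = 0.174), Col4a2, from 99.9 and 61.9 to 217 and 449 (1.97, 0.174), and Col4a1, from 182 and 113 to 361 and 595 (1.68, 0.183). The most negative were Col6a6 (18.6 and 9.59 to 2.08 and 0.362 FPKM, -2.82), Col23a1 (55.6 and 3.31 to 3.09 and 1.36, -2.33) and Col4a4 (19.2 and 14.2 to 3.44 and 2.19, -2.22). For all 6 genes the libraries of the 2 treatments did not overlap. Without overlap were 6 of the 30 collagens higher and 14 lower, and 3274 genes higher and 3843 lower of all 13389. The median was -0.83 over the 30 genes and -0.06 over all genes. A single fit of all groups called 14 collagens, 3 higher and 11 lower, the first being Col13a1, Col4a1 and Col4a2. The share of all genes given above is that of the fit within Thy1 and does not apply to this count. Without PH Thy1 library 1, 1 collagen was called lower, Col15a1 (-3.28, adjusted p = 0.0310). Endothelial markers summed to 891 to 896 FPKM in normal and 1199 to 2346 in PH Thy1. Mesothelial markers summed to 1947 to 3143 and 1152 to 1762, and portal fibroblast markers to 2111 to 2581 and 574 to 1554. Activated myofibroblast and smooth muscle markers summed to 106 to 181 FPKM in normal and 788 to 850 in PH Thy1. The sum did not rise through the whole list. The mean log2(FPKM + 1) of these markers was 4.23 in normal and 4.59 in PH Thy1. Of the 5 markers, 5 had a mean of at least 1 FPKM in normal and 4 in PH Thy1. The part of all these markers in the collagen values was not tested.

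In the libraries labelled blood 10 of 16 collagens passed, 8 higher and 2 lower after PH, where 64% of all genes passed, so the share is near that of all genes. The collagens split 11 to 1 with quantile normalization and 11 to 0 with upper-quartile scaling. All genes split 3109 higher to 5090 lower, then 3561 to 4337 and 3619 to 4184. Col13a1 had 5.35 and 6.91 FPKM in normal and 239 and 64.0 in PH libraries (4.14 ± 0.64 SE, limma adjusted p = 0.00524). Col4a2 went from 13.3 and 12.3 to 297 and 98.3 FPKM (3.64, adjusted p = 0.00462) and Col4a1 from 24.9 and 27 to 338 and 122 (2.92, 0.00697). Of these genes Col13a1 had its highest mean in LSEC in both treatments. Col4a1 and Col4a2 were high in HSC as well as in the endothelial sorts. The other 5 that rose stayed below 8 FPKM: Col27a1 (0.225 and 0.175 to 3.40 and 2.34), Col5a2 (1.53 and 1.55 to 7.85 and 3.30), Col1a1 (0.209 and 0.818 to 2.89 and 2.28), Col1a2 (1.34 and 2.58 to 4.29 and 4.47) and Col5a1 (0.807 and 0.700 to 2.33 and 2.03). Col17a1 fell from 1.74 and 1.08 to 0.174 and 0.0956 FPKM and Col5a3 from 1.04 and 1.24 to 0.228 and 0.199.

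LSEC markers (Stab1, Stab2, Clec4g, Fcgr2b, Lyve1, Gpr182) summed to 696 to 779 FPKM in normal and 2613 to 5750.4 in PH blood, and all 6 passed as higher. Endothelial markers summed to 265 to 283 and 823 to 1538 FPKM and Kupffer markers as given above. The part of these cells in the collagen changes was not tested. Of all genes 24.3% rose and 39.7% fell in blood. Of 19 synthesis genes 15 rose, led by Pcolce2 (4.75), Plod1 (3.10), P4ha2 (3.06) and Crtap (2.79), and 2 fell, Adamts14 (-2.93) and Plod2 (-1.22). Of 6 receptors Ddr2 rose (0.68) while Itga2 (-2.63) and Ddr1 (-2.34) fell, and 4 of 9 matrix genes rose, Thbs1 (3.18), Sparc (2.82), Bgn (2.78) and Fn1 (1.03). The collagen calls numbered 4 without normal blood library 1, 5 without normal library 2 and 6 without either PH library, and Col13a1, Col4a1 and Col4a2 kept theirs in all 11 alternatives. Col27a1 kept its call in the 9 alternatives that tested it and Col17a1 in 8, since with upper-quartile scaling, as without normal library 1 or 2, Col17a1 did not pass the filter. Col5a3, the other gene that fell, lost the call with quantile normalization (adjusted p = 0.0766) and in a single fit of all groups (0.243), and was not past the filter in the same 3 alternatives as Col17a1. The median change was 0.82 over the 16 genes and -0.31 over all genes.

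In KC Col4a1, Col4a2 and Col13a1 fell most among the collagens that passed after PH. Of 13 collagens 6 passed, all lower, against 36.8% of all genes in both directions. Col4a1 fell from 101 and 149 to 11.5, 6.27 and 24.2 FPKM (-3.23 ± 0.53 SE, limma adjusted p = 0.00818), Col13a1 from 46.8 and 75.2 to 4.26, 2.68 and 13.1 (-3.22, adjusted p = 0.0116) and Col4a2 from 64.5 and 104 to 7.90, 4.24 and 19.5 (-3.07, 0.0130). The other 3 were low in both treatments: Col27a1 (4.28 and 2.94 to 1.41, 0.810 and 0.603), Col20a1 (2.83 and 1.46 to 0.759, 0.680 and 0.388) and Col5a2 (3.35 and 2.21 to 1.36, 0.730 and 1.11). All 6 LSEC markers fell as well, their sum being 3191 to 4360.5 FPKM in normal and 308 to 546 in PH KC, and endothelial markers summed to 1096 to 1359.9 and 285 to 508. Their part was not tested. All 6 collagen calls were lost without normal KC library 1; without normal library 2, 1 call remained, and it was Col14a1 (-2.37, adjusted p = 0.0340), which was not among the 6. Without PH library 2 there were 3 calls.

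In KC 16.7% of all genes rose and 20.1% fell. Of 16 synthesis genes 8 rose, among them P4hb (1.26), Pcolce2 (1.19), Colgalt1 (0.98) and P4ha2 (0.81), and 3 fell, Colgalt2 (-1.84), Pcolce (-1.73) and P3h2 (-1.34). Of 4 receptors Lair1 rose (0.71) and Itga1 fell (-3.53). Of 11 matrix genes 6 fell, among them Thbs1 (-3.80), Bgn (-2.83) and Sparc (-2.53), and Fn1, a gene hepatocytes also express strongly, was listed at 0 after PH. All genes split 1975 higher to 2375 lower, and 2533 to 2018 with quantile normalization, which left 4 collagen calls. The median change was -0.87 over the 13 collagens and -0.04 over all genes.

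**Figure D5:**
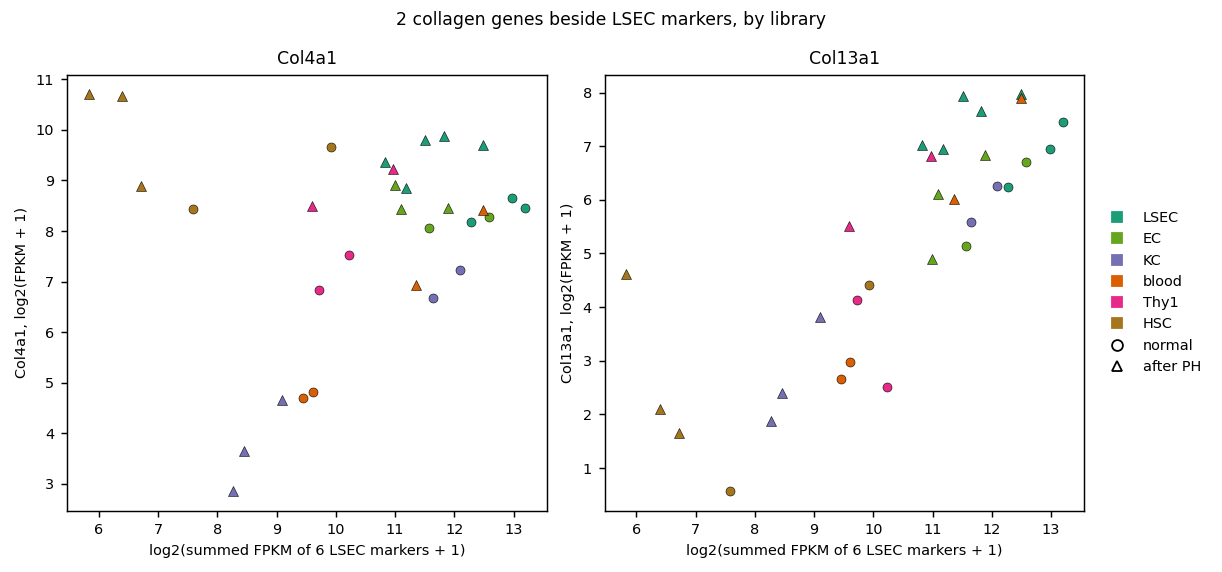
Level of Col4a1 and of Col13a1 against the summed level of 6 LSEC markers in each library of LSEC, EC, KC, blood, Thy1 and HSC, all as log2(FPKM + 1), with normal libraries as circles and PH libraries as triangles. Col13a1 is high where the LSEC markers are high, in blood and KC as in LSEC and EC, while the HSC libraries have high Col4a1 at low LSEC markers.

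In BEC 3 of 22 collagens passed, all lower, against 1.81% of all genes. Col14a1 fell from 4.76, 2.94, 4.19 and 4.24 to 0.257 and 0.267 FPKM (-1.98 ± 0.25 SE, limma adjusted p = 0.0107), Col3a1 from 14, 5.91, 10.4 and 22.0 to 0.327 and 2.23 (-2.63, adjusted p = 0.0414) and Col6a2 from 5.52, 3.16, 2.98 and 5.02 to 0.380 and 0.0308 (-2.08, 0.0168). These are collagens of HSC, Thy1 and NPD, and they were low in BEC to begin with. The collagens abundant in BEC did not pass: Col4a1 was -0.14 (-0.52 to 0.25, 95% interval), Col18a1 0.10 (-0.33 to 0.53) and Col4a5 0.04 (-0.38 to 0.46). Of 10 matrix genes Fmod (-2.27), Dcn (-2.22) and Eln (-1.74) fell. Kupffer markers summed to 57.0 to 247 FPKM in normal and 0.183 to 3.28 in PH BEC. Endothelial markers summed to 25.3 to 102 and 0.902 to 1.44, and portal fibroblast markers to 60.0 to 73.5 and 41.5 to 43.5. Their part was not tested. All 3 calls were lost under quantile normalization, where all genes split 25 higher to 37 lower against 30 to 202, and without either PH library. Without normal BEC library 2 there were 6. The median was -0.63 over the 22 genes and -0.12 over all genes.

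In cBEC 0 of 26 collagens passed (all genes 0.0681%), and 4 had an unadjusted p under 0.05, as had 1346 of all 13225 genes. The median change was -0.76, against -0.11 over all genes, with normal library 1 high for the fibrillar genes. Without that library 1 collagen passed, Col3a1, at -1.38 (adjusted p = 0.0221). The PH library titled cBEC 1 carries the treatment tag normal and was kept as titled.

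In EC 0 of 23 passed (all genes 0.0249%). A single fit of all groups called 5, a count to which the all-gene share of the fit within EC does not apply. At an unadjusted p under 0.05 were 8 collagens and 1297 of all 12064 genes. The median was 0.85 over the 23 genes and 0.02 over all. Normal EC libraries differed much in the fibrillar and beaded genes, Col1a2 for instance at 0.872 and 36.4 FPKM, with PH libraries at 20.6, 31.0 and 54.9. Mesothelial markers summed to 60.4 to 209.6 FPKM in normal and 173 to 672 in PH EC, duct markers to 44.8 to 56.7 and 167 to 322, and activated myofibroblast and smooth muscle markers to 13.6 to 16.7 and 94.0 to 218. Their part was not tested.

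In HC 0 of 5 passed (all genes 6.19%), with 1 at an unadjusted p under 0.05, as were 2157 of all 10029 genes. Col18a1 was 189, 233, 254 and 237 FPKM in normal and 31.8, 112, 148 and 138 in PH hepatocytes, without overlap. The same held for 500 genes higher and 1322 lower of all 10029. The log2 value of Col18a1 differed by -1.28 ± 0.44 (SE, limma adjusted p = 0.123). Leaving out PH HC library 1, the lowest, gave -0.78 (adjusted p = 0.0441), which passed. The median was -0.16 over the 5 genes and -0.07 over all, and all genes split 179 higher to 442 lower (236 to 332 with quantile normalization, 196 to 294 with upper-quartile scaling).

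Whether populations responded to PH differently was tested as the difference of their changes in a fit of all 20 groups. Between Thy1 and HSC 9 of 37 collagens differed, against 8.42% of all genes. Lower in the Thy1 response were Col6a6 (-2.90 ± 0.47 SE, limma adjusted p = 5.18e-05), Col4a4 (-2.24), Col4a3 (-1.93), Col4a6 (-1.28), Col7a1 (-1.02) and Col11a2 (-0.91). HSC had next to none of the first 4 genes in either treatment, so these differences rest on the Thy1 values. Higher were Col8a1 (2.84 ± 0.86 SE, limma adjusted p = 0.0321), Col24a1 (1.75) and Col25a1 (1.20), of which the last 2 had next to none in Thy1. Col8a1 was 2.81 and 15.6 FPKM in normal and 20.4 and 16.1 in PH Thy1, and lost the call in 8 of 17 alternatives (adjusted p range 0.000976 to 0.252). The responses of Col4a1 did not differ past the threshold, at 0.64 (-0.71 to 1.99). The collagen calls numbered 2 with a pseudocount of 0.1 and 5 without normal Thy1 library 1.

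Between NPD and HSC 5 of 37 differed, against 6.85% of all genes; this comparison shares the HSC libraries with the one before. Col5a3 was higher in the NPD response (3.29 ± 0.73 SE, limma adjusted p = 0.00262), as were Col24a1 (1.87) and Col25a1 (1.33), while Col4a4 (-1.51) and Col4a3 (-1.13) were lower. NPD had next to none of Col24a1 and Col25a1 in either treatment, so these differences rest on the HSC values. Col25a1 was 4.65 and 1.26 FPKM in normal and 0.295, 0 and 1.26 in PH HSC. For Col4a4 and Col4a3 HSC had next to none, so those differences rest on the NPD values. For Col4a1 the difference was 1.32 (-0.03 to 2.66) and for Col14a1 -1.43 (-3.14 to 0.27), both short of the threshold. The calls numbered 2 with a pseudocount of 0.1 and 3 without normal NPD library 2 or PH NPD library 1. Between LSEC and EC 0 of 37 differed by limma, against 0.345% of all genes. At an unadjusted p under 0.05 were 8 collagens and 1035 of all 16527 genes. These all-gene figures are of the fit of all 55 libraries and do not apply to fits that leave out a library. Without normal EC library 2, the library high in fibrillar genes, 6 differed, all lower in the LSEC response: Col3a1, Col1a2, Col6a1, Col6a2, Col4a5 and Col4a6.

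The members' medians were -0.47, 0.51 and -0.44 in these 3 comparisons, against -0.07, 0.05 and -0.05 over all genes. All genes split 545 higher to 847 lower, 699 to 433 and 17 to 40. With quantile normalization these were 740 to 730, 689 to 712 and 36 to 27.

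The genes most like Col1a1 over the 20 group means, among 18102 genes, were Loxl1, an enzyme that crosslinks elastic fibres (Pearson's r of 0.98), Cd248, a membrane protein of pericytes and fibroblasts (0.96), Cpxm1 (0.96), Mrgprf (0.96) and Map1a, a microtubule protein (0.96). Those most like Col4a1 were Adamts1, a secreted metalloproteinase (0.96), Tcaf2 (0.95), Pcdhb22, a protocadherin (0.94), Cdr2l (0.94) and Ankrd50 (0.93). Adamts1 had its highest mean in PH HSC, as Col4a1 did, at 378 FPKM, and Loxl1 in PH NPD, at 109. The likeness is a description over groups that share admixture and depth.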

How the data were processed

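RNA sequencing of FACS-sorted mouse liver cells was deposited by the authors as FPKM per transcript, per the file headers. The submitters' processing notes name CASAVA 1.8.2, Bowtie 1.0.0 and the build mm9, and the counter, the annotation and the strand setting are not given in the sources used here. The table has 36141 rows, 58 of them of collagen genes, and 13 collagen symbols have several rows, of which the one with the highest mean was kept. HC columns carry 2 decimals. Starts in the table were read as counted from 0, since end minus start equals the RefSeq length for 11113 of 23523 symbols. Depth is unknown, so no counting interval is given.

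Samples were grouped by title, and PH cBEC library 1, whose treatment tag says normal, was kept as titled. Values were put on the scale log2(FPKM + 1) and tested with limma 3.58.1 under R 4.3.3, for genes at 1 FPKM or more in as many libraries as the smallest group has, with Benjamini-Hochberg adjustment over all genes tested and a threshold of 0.05. The pseudocount makes changes of low genes look smaller than they are. The change after PH was fitted within each population, source comparisons within each treatment, and differences of responses over all groups. Alternatives were leaving out the filter, a pseudocount of 0.1, scaling to the upper quartile, quantile normalization, the mean over the rows of a symbol, a single fit of all groups, a replicate block and leaving out each library. Leaving out the PH blood libraries with normal cBEC library 1, and leaving out HC, were added after seeing the data. The tests were run on simulated data first.

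By rule, every member that reached 10 FPKM in some group mean was named with its highest group, as was every member past the threshold after PH, and in HSC, Thy1, NPD and LSEC the 3 highest and 3 lowest changes. Of the synthesis, receptor and matrix lists, up to 4 genes past the threshold per direction were named where a collagen passed. Other genes were named after their values were seen. The members and all lists were chosen with earlier results of these data known. Python 3.11.15, pandas 2.3.3, numpy 2.4.6 and matplotlib 3.10.9 were used.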

Additional observations from a re-analysis of the deposited data

Results flagged for a closer look

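Normal cBEC library 1 lay apart from the other 3 normal cBEC libraries for 10 of the 24 collagens examined in that group, each time above them. For the fibrillar genes it had 212.9 FPKM of Col3a1 (the others 30.28 to 38.53), 95.23 of Col1a2 (10.86 to 15.39), 95.06 of Col1a1 (8.757 to 18.41) and 12.23 of Col5a1 (0.9152 to 1.919). For the beaded filament genes it had 73.37 FPKM of Col6a1 (9.523 to 17.21), 58.25 of Col6a2 (6.235 to 7.863), 23.99 of Col6a3 (0.8159 to 3.221) and 9.257 of Col6a5 (0.9779 to 1.553). Col14a1 was at 48.61 FPKM (5.115 to 10.39) and Col4a1 at 99.91 (59.24 to 62.47). The same library held mesothelial markers at 1841 FPKM and duct markers at 9673 FPKM, and their part was not tested. Of the remaining values, Col23a1 was 4.68 FPKM in normal cBEC library 4 (1.863 to 2.181 in the others), and Col4a2 was 2.51 FPKM in PH HC library 1 (3.51 to 3.63). Dixon's criterion was applied to 68 sets of library values, each the 4 or 5 libraries of 1 gene in 1 group. In all 12 values stood apart, where chance gives about 1 in 20 of the sets, or 3.4. Values of 1 library are not independent of each other.

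The response to PH differed between populations for 14 pairs of gene and comparison, by limma on the difference itself. As Thy1 minus HSC on the log2 scale, it was 2.839 for Col8a1, 1.748 for Col24a1, 1.196 for Col25a1, -0.9051 for Col11a2, -1.017 for Col7a1, -1.282 for Col4a6, -1.93 for Col4a3, -2.236 for Col4a4 and -2.9 for Col6a6. As NPD minus HSC, it was 3.287 for Col5a3, 1.871 for Col24a1, 1.335 for Col25a1, -1.13 for Col4a3 and -1.505 for Col4a4. Both comparisons use the same 5 HSC libraries. Col4a3 and Col4a4 were near or at 0 in all HSC libraries, and Col24a1 was at 10.7 and 7.53 FPKM in normal and 2.19, 1.96 and 2.97 in PH HSC. In the Thy1 and NPD libraries Col24a1 and Col25a1 were near or at 0.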

How the results depend on the processing

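Over the 25 comparisons 323 alternatives were computed, of which 281 left the count of collagens called on its side or within 1.5 times. All counts of collagens higher at a source, and those differing between HSC and Thy1, did so, while those lower in PH HSC went from 13 to 6 with quantile normalization. Of 325 calls of single collagens 220 were kept in every alternative that tested them, and 3 turned direction in some alternative, Col11a2 (HSC against Thy1 after PH), Col4a3 (normal LSEC) and Col4a5 (PH EC). Quantile or upper-quartile scaling shifted the median of all genes by -0.33 to 0.43 on the log2 scale, and changes are best read relative to it.

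With a pseudocount of 0.1 the calls after PH in BEC numbered 8 against 3, and the response differences 2 against 9 (Thy1 and HSC) and 2 against 5 (NPD and HSC). With no filter BEC had 1 and NPD 4 against 11. Quantile normalization left 0 in BEC and 0 in LSEC (2 before). A single fit of all groups gave 4 in cBEC, 7 in NPD, 5 in EC, 4 in LSEC, 14 in Thy1 and 5 in HSC. The shares of all genes given with each population are those of the main fits and do not apply to these counts. The cause was not tested. With a replicate block BEC had 6, LSEC 0 and Thy1 3 against 0, and no other count moved by over 1.5 times. The labels tie the replicate numbers to nothing shared, and with 3 or more pairs same-numbered libraries did not deviate together (correlations of -0.67 to 0.57 in HC and -0.24 to -0.02 in LSEC), so the replicate block is not read as pairing.

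Leaving out 1 library gave 0 to 1 calls in cBEC, 0 to 6 in BEC, 2 to 19 in NPD, 0 to 1 in HC, 0 to 2 in LSEC, 4 to 6 in blood, 0 to 1 in Thy1, 0 to 6 in KC and 0 in EC and HSC. It gave 5 to 11 for the Thy1 and HSC responses, 3 to 7 for NPD and HSC, and 0 to 6 for LSEC and EC. In normal source comparisons it gave 13 to 15 for HSC, 22 to 24 for Thy1, 18 for NPD, 3 to 4 for LSEC and 4 to 6 for EC. After PH it gave 14 to 15, 21 to 23, 20 to 21, 4 and 8 to 10 in that order, and for HSC against Thy1 17 to 19 in normal and 17 to 23 in PH libraries.

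Most groups hold 2 to 4 libraries, and depth is unknown, so small changes of low genes are not resolved. Where a group keeps 1 library, that library was assumed to vary like the others.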
